A study of Ovis aries and Bos taurus with 10 samples.

Results

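The granulosa cells (GC) are the somatic cells that surround and nourish the oocyte, and this series holds 3 arrays of them, PDG, PMG and SECG, among 10 arrays in all. They were chosen by their labels as GC of the primordial, primary and secondary follicle stage. All 3 came from ovaries of newborn lambs under 1 day old and were cut out of frozen sections by laser capture microdissection (LCM). In a primordial follicle a few flattened GC surround the oocyte, in a primary follicle the GC form a single cuboidal layer, and in a secondary follicle they form a double layer. The captured RNA was pooled from 2 animals for PDG, 4 for PMG and 2 for SECG, amplified over 2 rounds, labelled with the Arcturus turbo kit and read on Bovine Genome Arrays of Affymetrix. Each stage therefore has 1 array, and stage, pool of animals, amplification and array cannot be told apart. No test between stages was possible, and every difference below compares these arrays with no replicate error. The oocyte arrays of the same stages and preparation are PDO, PMO and SECO.

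The growth of a follicle starts when flat pregranulosa cells become cuboidal and begin to divide. Growing GC are known for the inhibin and activin system, for gap junctions with the oocyte and for enzymes of oestrogen synthesis, and they supply the oocyte with products of glycolysis that it makes poorly itself. They lie inside a basement membrane that keeps stroma and vessels outside the follicle. The question put to the 3 arrays was which transcripts differed between successive stages.

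A signal is the MAS 5.0 intensity of a probe set, scaled by the authors to a common level on each array. A gene entered the comparison when its probe set was among the brightest 35% on at least 1 of the 3 arrays, and where several probe sets passed the brightest stood for the gene. The lowest signal in that brightest share, called the limit of an array below, was 48.9 on PDG, 59.7 on PMG and 50.6 on SECG. This left 5948 genes, of which 3921 were above the limit on all 3 arrays, 910 on 2 arrays and 1117 on 1 array alone. Differences are given on the scale of log2(signal + 20), and a difference of at least 1 is counted as higher or lower. Fold values are ratios of plain signals, and where the dimmer signal was under the limit of its array the ratio to that limit is given as "at least". A gene that entered through its brightest array alone had to differ between arrays, so counts among genes above the limit on all 3 arrays are given as well over all genes. For the gene lists such counts are not given.

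The marker genes of GC were read first. Follistatin (FST), which binds activin, had signals of 107 on PDG, 410 on PMG and 776 on SECG, against 15.2, 111 and 51.4 on the oocyte arrays of the same stages. The inhibin alpha subunit INHA had 36.7, 200.3 and 617, against 27.4, 105 and 62.6 in oocytes. HSD17B1, which turns oestrone into oestradiol, had 6.89, 102 and 535, against 37.8, 37.3 and 5.86. CDH2, the cell adhesion molecule N-cadherin, had 60.4, 91.6 and 163, against 22.9, 23.5 and 49.3. All 4 were above the limit on PMG and SECG, and INHA and HSD17B1 were under it on PDG. Other defining genes of GC were under the limit on all 3 GC arrays, namely AMH (15.5, 13.6 and 16.6), FOXL2 (1.13, 50.8 and 3.65), KITLG (5.27, 3.39 and 43.7), FSHR (2.93, 39.3 and 35.1) and CYP19A1. Of 20 GC markers on the array, 10 were above the limit on PDG and 11 each on PMG and SECG. The label was thus borne by part of its markers, and by nearly as many on PDG as on SECG.

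Transcripts of other cells were also present. Of 13 oocyte markers on the array, 11 were above the limit on PDG and 10 each on PMG and SECG. ZP3, a protein of the zona pellucida that coats the oocyte, had 778 on PDG, 1508 on PMG and 683 on SECG, and 2822, 2720 and 751 on the oocyte arrays. The summed signal of the 13 was 4824, 7992 and 5357 in GC and 11273, 11560 and 5233 in oocytes. At the secondary stage the sum in GC was thus slightly above that in oocytes. ZP2 had 1043 on SECG against 348 on SECO, ZP4 987 against 493 and MOS 221 against 80.4. GDF9 and KIT were also brighter on SECG, while the other markers, ZP3 among them, were brighter on SECO. Oocyte markers on the GC arrays were brightest at the primary stage by their sum, and their part in the stage differences was not tested.

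Several control values moved between the arrays. The 18 probe sets for the hybridization controls, bacterial and phage transcripts added after amplification in a fixed amount, were higher on PMG than on PDG by a median of 1.34 (lowest 1.14, highest 1.56) and their SECG minus PMG difference had a median of -0.71. The control probe sets for Bacillus subtilis dap had a median signal of 60.4 on PDG, 316 on PMG and 51.7 on SECG. GAPDH probe sets at the 3′ end were 10.6 times as bright as those at the 5′ end on PDG, 31.3 times on PMG and 23.9 times on SECG. PMG enters both steps, and the part of these values in the stage differences was not tested. Among 777 genes with several passing probe sets, the median range between the probe sets of a gene was 0.71 for PMG minus PDG, 0.73 for SECG minus PMG and 0.65 for SECG minus PDG. Among counted genes with several passing probe sets, all probe sets shared the sign in 53 of 86 (61.6%) for PMG minus PDG, in 69 of 112 (61.6%) for SECG minus PMG and in 91 of 126 (72.2%) for SECG minus PDG, so over the rest another probe set had the opposite sign. These values describe probe sets within an array and hold no error between pools of animals.

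Most genes differed little between the stages. Of the 5948 genes, 3934 (66.1%) differed by less than 1 at both steps and between the first and last stage. The median absolute difference was 0.45 for PMG minus PDG, 0.47 for SECG minus PMG and 0.47 for SECG minus PDG, and the median signed differences were 0.03, -0.00 and 0.02. From the primordial to the primary stage 476 genes (8%) were higher and 479 (8.05%) lower. With each array centred on its median the same comparison had 37.8% of its counted genes on the higher side in place of 49.8%. From the primary to the secondary stage 590 (9.92%) were higher and 510 (8.57%) lower. Between the primordial and secondary stages 677 (11.4%) were higher and 492 (8.27%) lower. Restricted to probe sets above the limit on all 3 arrays, these counts were 133 and 202, 246 and 155, and 315 and 235. A steady rise, at least 0.5 at both steps, was seen in 182 genes (3.06%), and a steady fall of the same size in 116 (1.95%). PMG stood at least 1 above both neighbours in 149 genes (2.51%) and at least 1 below both in 176 (2.96%). These shares changed with the processing. Peaks came to 0.672% with a constant of 50, 0.636% with probe sets above the limit on all 3 arrays and 4.61% with a constant of 1, and troughs to 1.14%, 0.992% and 5.62%.

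**Figure D1:**
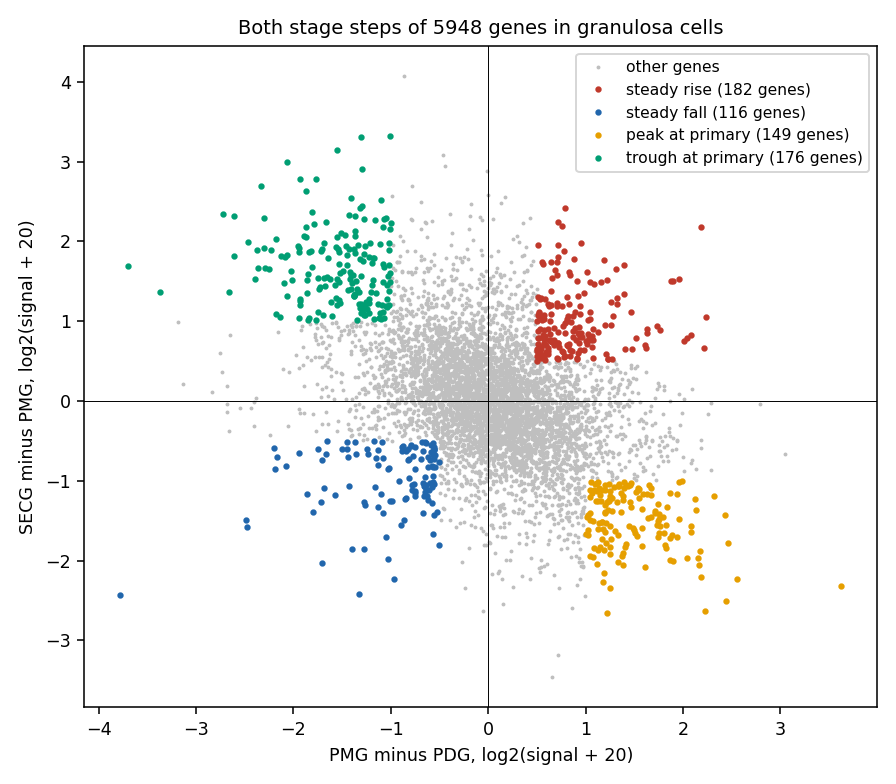
Each point is 1 of 5948 genes, with its PMG minus PDG difference on the x axis and its SECG minus PMG difference on the y axis, both on the log2(signal + 20) scale. The 182 steady rises lie at the upper right and the 116 steady falls at the lower left, while the cloud leans from upper left to lower right, where both axes share the PMG array with opposite sign.

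The largest steady rise was that of HSD17B1, at 4.37 between PDG and SECG, and SECG was at least 10.9 times the PDG limit. INHA came second at 3.49, with SECG at least 12.6 times the limit. These are markers of GC that were chosen with earlier results of these data known, so their place in the order is a description. The secreted integrin-like protein ITGBL1 had 61.7, 285 and 849, a 13.8-fold difference, and was above the limit on every array. TRIB2, a pseudokinase that scaffolds protein degradation, was the brightest of the group with 2037, 8720 and 15505, a 7.61-fold difference that its other probe set shared in sign. TRIB2 had 1014, 1895 and 3425 on the oocyte arrays. LOC338050, a gene without an assigned name, had 132, 694 and 1467. The stepwise pattern was therefore not limited to dim genes.

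The other 5 of the 10 largest rises started under the limit on PDG. PHPT1, a phosphatase of phosphohistidine, had 6.43, 77.1 and 256. ANTKMT, a mitochondrial lysine methyltransferase, had 26.9, 103 and 379. MRPL41, a protein of the mitochondrial ribosome, had 21.4, 60.1 and 296. PPP1R12C, a regulatory subunit of myosin phosphatase, had 7.10, 26.7 and 230.5, and CTSF, a lysosomal protease, had 4.35, 35.4 and 169. PPP1R12C and CTSF were above the limit on SECG alone, so their step between PDG and PMG lay wholly under it. All 5 were also higher on SECO than on PDO, beside 12% of all genes. SECO was at 168 for PHPT1, 151 for ANTKMT, 168 for MRPL41, 357 for PPP1R12C and 209 for CTSF.

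**Figure D2:**
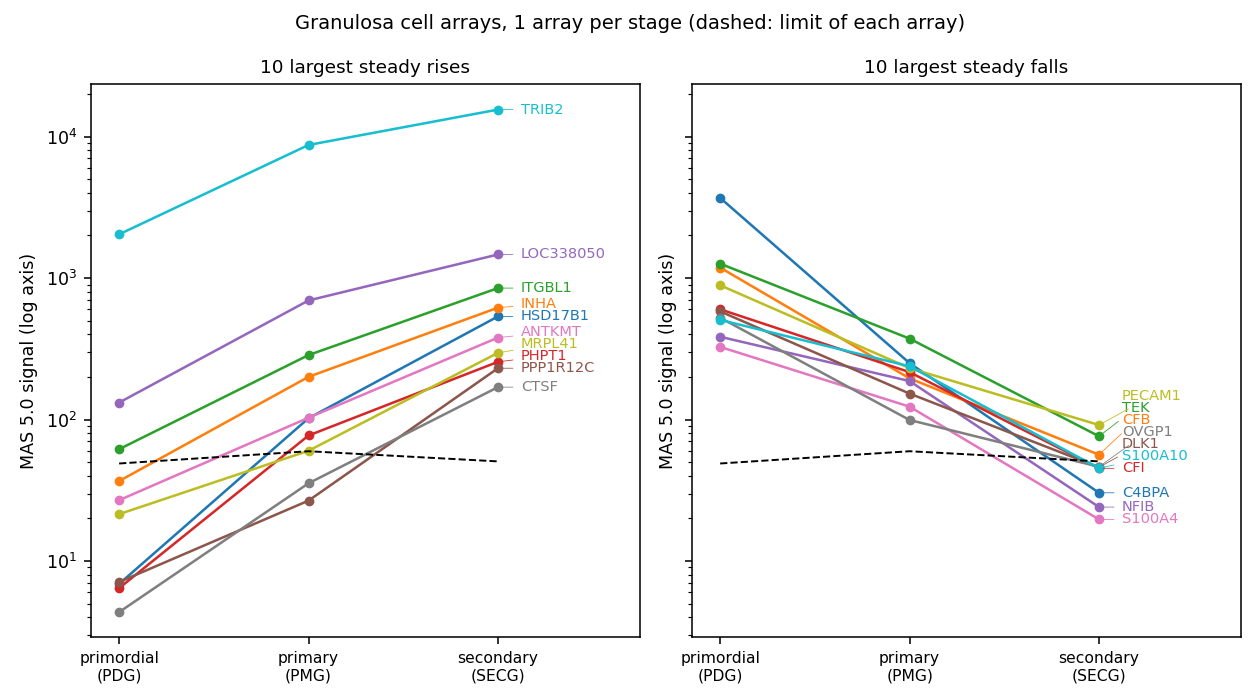
Signals on a log axis at the 3 stages, for the 10 largest steady rises on the left and the 10 largest steady falls on the right, with 1 array per stage and the limit of each array as a dashed line. TRIB2 lies above all other genes drawn on PMG and SECG, whereas the falls start between 326 and 3684 on PDG and end between 19.7 and 91.4 on SECG.

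Of 20 GC markers on the array 13 passed, with a median SECG minus PDG of 1.19 against 0.02 over all genes. Among the 13, 7 were higher at the secondary than the primordial stage and 1 was lower, beside 11.4% and 8.27% over all genes. The 7 include FST, INHA, HSD17B1 and CDH2, which were chosen with earlier results of these data known, so the median and count are descriptions. NR5A1, the nuclear receptor also called SF-1 that drives steroid genes, had 61.0, 231 and 434, but only 2 of its 3 probe sets shared this sign and their mean difference was 0.79 in place of 2.49. GJA1, the connexin 43 of gap junctions, had 3474, 4437 and 9910, a 2.85-fold difference. SERPINE2, an inhibitor of serine proteases, had 237, 454 and 644. GATA4, a transcription factor of gonadal somatic cells, had 125, 88.7 and 263, and its difference of 0.97 was just under the minimum. The lower one was KRT18, a keratin of simple epithelia, with 102, 41.4 and 5.80, which passed through PDG alone. INHBA, the beta subunit shared by inhibin A and activin A, had 470, 244 and 253, so the inhibin subunits did not move alike. In oocytes the median of the 13 was 0.69, with 5 higher and 1 lower, beside 12% and 10.5% over all genes there. GATA4 (82.4, 101 and 229) and INHBA (64.1, 110 and 334) were among the 5 higher in oocytes, and HSD17B1 was the lower one.

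PHGDH, the first enzyme of serine synthesis, had GC signals of 202, 430.1 and 720 against oocyte signals of 84.3, 236 and 159. LAS1L, a factor of ribosome assembly, had 254, 320.4 and 406, a difference of 0.64. CCND2, the D-type cyclin typical of GC, had 376, 239 and 328. INSR had 20.6, 60.0 and 4.92, with only PMG at its limit, and IL1B was under the limit on all 3 arrays. RPL19, a ribosomal protein used as a reference gene, had 8232, 8263 and 8603, and ACTB had 168, 216 and 201. These reference genes differed by 0.06 and 0.23 between PDG and SECG.

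The largest steady falls included 3 genes of the complement system, which marks surfaces for removal. C4BPA, which binds and inactivates complement C4b, had 3684 on PDG, 250.3 on PMG and 30.3 on SECG, at least 72.8 times lower at the secondary stage. On the oocyte arrays C4BPA had 776, 489 and 40.0. CFB, the protease of the alternative pathway, had 1185, 195 and 56.4, a 21.0-fold difference, against 621, 434 and 95.6 in oocytes. CFI, which cleaves C3b and C4b, had 601, 216 and 45.2, against 521, 778 and 175. All 3 were thus lower at the secondary than the primordial stage in GC and in oocytes, and in oocytes most of the difference lay between PMO and SECO.

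Of the list of complement genes and serpins, 12 of 21 genes on the array passed, with a median SECG minus PDG of -0.33. Of the 12, 4 were lower and 1 higher on SECG than on PDG, beside 8.27% and 11.4% over all genes. C3, the central complement component, had 942, 161 and 160.5. SERPINF1, a secreted factor that restrains vessel growth, had 2832, 424 and 413. Both differed at the first step alone, and the median of the list was -1.01 there and 0.11 at the second. C4BPA is not in this list.

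The other large steady falls had varied functions. TEK, the angiopoietin receptor of endothelium, had 1263, 373 and 76.1 in GC, a 16.6-fold difference, against 487, 548 and 825 in oocytes. PECAM1, an adhesion molecule of endothelium and blood cells, had 888, 231 and 91.4, a 9.72-fold difference. DLK1, a membrane protein related to the Notch ligands, had 581, 152 and 46.0. The calcium-binding proteins S100A4 and S100A10 had 326, 123 and 19.7, and 506, 238 and 45.3. NFIB, a transcription factor, had 384, 187 and 24.1, and OVGP1, a glycoprotein known from the oviduct, had 524, 99.2 and 46.3. Of these 10, 7 ended under the SECG limit.

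Markers of the tissue around the follicle were lower at later stages. Of 35 markers of stroma, smooth muscle and endothelium that passed, 22 were lower on SECG than on PDG and none higher, beside 8.27% lower and 11.4% higher over all genes. In oocytes 4 were lower and 4 higher, near the 10.5% and 12% of all genes there. The filter on low signals used the GC arrays alone. Of these 35, 15 were lower from PDG to PMG and 12 from PMG to SECG. POSTN, DPT and ERG, among the 22, were above the limit on PDG alone. They thus passed through the array where they were highest, and their counts are no support. In such captured material fewer cells of a type and less RNA per cell cannot be told apart.

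The stroma list had 23 genes on the array, of which 21 passed with a median SECG minus PDG of -1.36. Of the 21, 7 showed a steady fall, beside 1.95% of all genes. COL3A1, a fibrillar collagen, had 22597, 7585 and 3346, a 6.75-fold difference that both probe sets shared in sign. COL1A1 had 907, 199 and 105, and COL1A2 had 18143, 17717 and 7052. FN1, the matrix glycoprotein fibronectin, had 598, 269 and 109, and OGN, a small leucine-rich proteoglycan, had 977, 286 and 163. These 5 genes were thus far above the limit on PDG and still above it on SECG. The summed signal of the 23 stroma genes was 78140 on PDG, 41784 on PMG and 26414 on SECG, against 36006, 24395 and 23005 in oocytes and 66518 in RNA of a whole fetal ovary, which was amplified and labelled alike but not laser-captured. Of the 23, 20 were above the limit on PDG, 18 on PMG and 17 on SECG.

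Of 10 smooth muscle markers 6 passed, with a median of -1.13. MYLK, the myosin light chain kinase, had 6959, 4046 and 1945, and ACTA2, smooth muscle actin, had 370, 99.4 and 78.2. The summed signal of the 10 was 10136, 5912 and 3675. Of 17 endothelial markers 8 passed, with a median of -1.15 and 5 lower, beside 8.27% lower over all genes. ERG, a transcription factor of endothelium, had 186, 23.6 and 12.4, whereas VWF, another defining gene, was under the limit on all 3 arrays. The sum over the 17 was 3367, 1410 and 709. The part of stroma, muscle and vessel RNA in the other differences, such as those of complement genes, was not tested.

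Blood cell markers followed another order. HBB, the beta chain of haemoglobin, had 50.9, 398 and 69.4, a pattern that 2 of its 3 probe sets shared in sign, and the summed signal of the 8 red blood cell markers was 315, 937 and 321. Of the leukocyte markers 6 of 19 passed, and the sum over all 19 was 759, 899 and 431. AIF1, a marker of macrophages, had 137, 9.91 and 10.6, and CSF1R, a growth factor receptor of macrophages, had 115, 232 and 45.5. AIF1 passed through PDG alone, where it was highest. PTPRC, which marks all leukocytes, was under the limit on every GC array. Of 7 passing genes of theca cells and steroid synthesis 1 was higher and 1 lower, beside 11.4% and 8.27% over all genes. These were INSL3, a hormone of theca cells (21.8, 73.6 and 84.5), and ACTA2. CYP17A1, LHCGR and STAR were under the limit. Of 3 passing keratins of the ovarian surface epithelium, KRT7 was lower, with 52.9, 6.97 and 4.69, beside 8.27% lower over all genes. KRT7 was above the limit on PDG alone, so it passed through the array where it was highest and is no support.

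**Figure D3:**
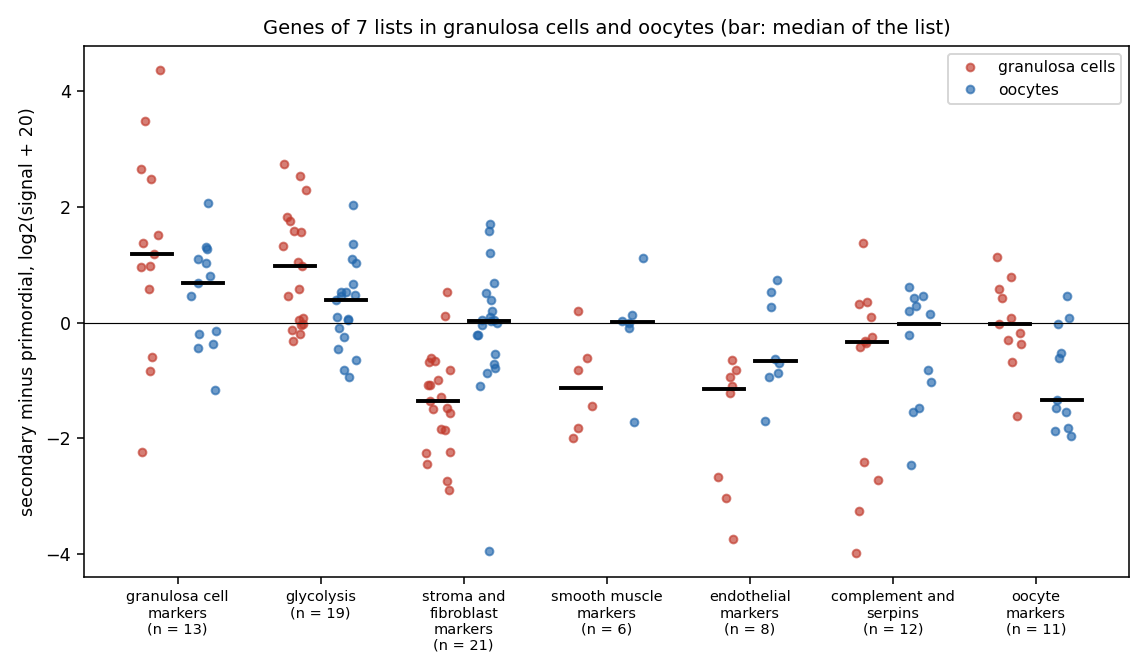
Secondary minus primordial difference on the log2(signal + 20) scale for each passing gene of 7 lists, in granulosa cells (SECG minus PDG, red) and oocytes (SECO minus PDO, blue), with the median of each list as a bar. The stroma median is -1.36 in granulosa cells and 0.04 in oocytes, and that of glycolysis 0.98 and 0.39.

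Glycolysis was the metabolic list with the largest median. Of 21 genes on the array 19 passed, 9 were higher on SECG than on PDG and none was lower, beside 11.4% and 8.27% over all genes. The median was 0.98, and 5 showed a steady rise, beside 3.06% of all genes. ALDOA, which splits fructose bisphosphate, had 217, 602 and 1560, a 7.19-fold difference. SLC16A3, a lactate exporter, had 84.5, 196 and 587, although its other probe set had the opposite sign at the first step. TPI1, the triosephosphate isomerase, had 102, 88.2 and 576 and differed at the second step alone. GAPDH had 560.0, 866 and 2044, a 3.65-fold difference, and PGAM1 had 95.9, 252 and 372. The glucose transporter SLC2A1 had 54.6, 86.0 and 203, and the enolase ENO1 had 100.1, 137 and 338. All of these were above the limit on every GC array.

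The other 10 genes were under the minimum. The lactate dehydrogenases LDHA and LDHB had 1499, 1630 and 2064, and 1654, 1438 and 1620, so LDHB differed by -0.03. HK1, the first enzyme of the pathway, had 139, 293 and 294, and its difference of 0.98 equalled the median of the list. PFKM had 103, 104 and 87.1, and PKM had 46.7, 62.4 and 45.0, close to the limit. In oocytes 4 of the 19 were higher, beside 12% of all genes, and none lower, with a median of 0.39. Oocyte ALDOA had 388, 270 and 572. Without the filter on low signals the median over all 21 genes was 0.58, and under the other alternatives it lay between 0.87 and 1.08.

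**Figure D4:**
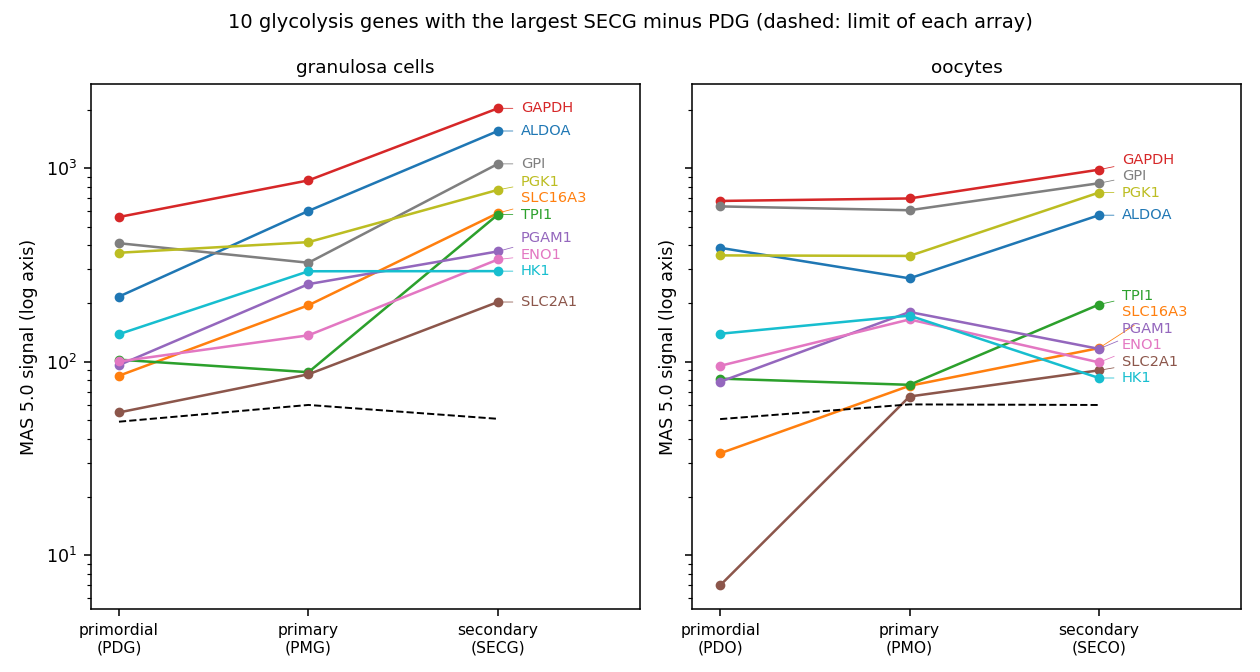
Signals on a log axis of the 10 glycolysis genes with the largest SECG minus PDG difference, in granulosa cells on the left and oocytes on the right, with 1 array per stage and the limit of each array dashed. All 10 end higher on SECG than on PDG, with the largest difference for ALDOA (1560 against 217) and the smallest of the 10 for HK1 (294 against 139).

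Oxidative phosphorylation had 4 higher and 2 lower of 68 genes, with a median of -0.18. Cytosolic ribosomal proteins had 8 higher and none lower of 61, with a median of -0.05, led by RPL29 with 38.3, 71.1 and 284. The serine and amino acid list had 2 higher and none lower of 18, and sterol synthesis 2 higher and none lower of 16. The higher counts lay near the 11.4% of all genes, except in oxidative phosphorylation, where they were under it. The lower counts of all these lists were under the 8.27% of all genes.

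The list of the secretory pathway and protein folding in the endoplasmic reticulum had 7 higher and 1 lower of 32. The median was 0.27, and over all genes 11.4% were higher and 8.27% lower. P4HB, the protein disulphide isomerase, had 1664, 1758 and 5450, and SEC61B, a subunit of the translocon, had 645, 1218 and 2092. CALR, the chaperone calreticulin, was the lower one, with 258, 95.9 and 103. Oocytes had 10 higher and 1 lower of the same genes, beside 12% and 10.5% over all genes there. Translation factors had 4 higher and none lower of 30 in GC, near the 11.4% of all genes that were higher. Among them EIF4G1, the scaffold of the cap-binding complex, had 62.8, 52.8 and 341.

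Genes of the basement membrane list differed in both directions. Of 15 passing genes 3 were higher and 3 lower on SECG than on PDG, with 3 steady rises and 3 steady falls. Over all genes 11.4% were higher and 8.27% lower, with 3.06% steady rises and 1.95% steady falls. LAMA4, the laminin alpha chain of vessels and muscle, had 3051, 532 and 166, an 18.4-fold difference, although its other probe set had the opposite sign at the first step. COL15A1 had 385, 206 and 77.5, and EFEMP1, a fibulin, had 844, 316 and 192, and each of them likewise had a second probe set of opposite sign at the first step. DAG1, the laminin receptor dystroglycan, had 964, 1704 and 4225, a 4.38-fold difference, but its other probe set had the opposite sign at the second step. LAMB2, the laminin beta 2 chain, had 77.9, 149 and 312, and COL4A3, a type IV collagen chain, had 42.5, 91.5 and 154.

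Among vascular growth factors, VEGFA, the main growth factor of vessels, had 665, 885 and 1697, and HIF1A, the factor that responds to low oxygen, had 1931, 3532 and 5477. Several receptors were lower. EDNRA, an endothelin receptor, had 520.1, 451 and 112, and NRP1, a co-receptor for VEGF, had 401, 193 and 131. EPAS1, the relative of HIF1A found in endothelium, had 922, 597 and 266. A second probe set had the opposite sign at the first step for EPAS1 and at the second step for VEGFA. Of the 17 genes that passed 2 were higher and 5 lower, beside 11.4% and 8.27% over all genes, with a median of -0.62. VEGFA in oocytes had 179, 300.3 and 262.

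Of 17 genes of matrix turnover 3 were higher and 4 lower, beside 11.4% and 8.27% over all genes. MMP14, a membrane-bound collagenase, had 183, 41.8 and 5.79, at least 3.63 times lower. TIMP1, an inhibitor of metalloproteases, had 402, 341 and 827, and VCAN, the proteoglycan versican, had 120, 176 and 324. HAS2, which makes hyaluronan, had 42.0, 50.8 and 139. MMP14 and LOX, among the lower ones, were above the limit on PDG alone, and HAS2, among the higher ones, on SECG alone. These genes passed through the array where they were highest, and their counts are no support.

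Of the activin, inhibin and AMH pathway 7 genes passed, and INHA and FST were the ones counted higher. The counts of this paragraph stand beside 11.4% higher and 8.27% lower over all genes. SMAD2, which carries the activin signal to the nucleus, had 587, 670 and 1101, and SMAD4 had 447, 384 and 378. In the BMP and TGF-beta list 1 was higher and 5 lower of 13, with a median of -0.67. BMP2 and BMP7, among the lower ones, were above the limit on PDG alone. TGFBR2, the type 2 receptor for TGF-beta, had 1714, 572 and 438, and BMP2 had 96.1, 58.7 and 9.14. BMPR2, the type 2 receptor for BMP, had 13.5, 83.3 and 56.3 and was the higher one. In the insulin-like growth factor list IGFBP3, which carries IGF in serum, had 2941, 448 and 343, an 8.59-fold difference, and was the 1 gene counted lower of 10. The 3 counted higher were the binding proteins IGFBP2 with 13.5, 43.7 and 85.8 and IGFBP6 with 13.3, 78.1 and 48.1, and IGFALS, which stabilizes IGF complexes in serum, with 18.7, 22.4 and 105. Each of these 3 was above the limit on a single array. IGFBP7 had 14012, 11139 and 11151, and the median of the list was -0.25.

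Of 8 passing transcription factors of gonadal somatic cells 3 were higher and 2 lower, beside 11.4% and 8.27% over all genes. GATA6 had 452, 638 and 995, and EMX2, needed for the gonad to form, had 43.0, 69.5 and 107. The orphan receptors NR2F1 and NR2F2, which are abundant in stroma, had 488, 453 and 156, and 3408, 4629 and 1605. NR2F2 is also among the stroma markers. NR0B1, a repressor of NR5A1, had 156, 17.1 and 96.2. For NR2F2 at both steps and NR0B1 at the second step, 1 other probe set had the opposite sign.

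Counts in the S phase and mitosis lists lay near or under the shares of 11.4% higher and 8.27% lower over all genes. Of 21 S phase genes 1 was higher and 1 lower, with a median of -0.11, and of 23 genes of G2 and mitosis 1 was higher and 2 lower, with a median of -0.16. RFC4, a loader of the replication clamp, had 2947, 1330 and 1154, and PLK1, a mitotic kinase, had 56.2, 55.1 and 173. In the list of cyclins and arrest genes 3 were higher and none lower of 13. CDKN1A, the cell cycle inhibitor p21, had 69.9, 301 and 180, MYC had 186, 511 and 404, and CDK4, the kinase of D-type cyclins, had 395, 303 and 998. Among immediate early and stress genes CCN2, a matrix protein induced by TGF-beta, had 6047, 893 and 1156, and JUN had 485, 601 and 1673.

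**Figure D5:**
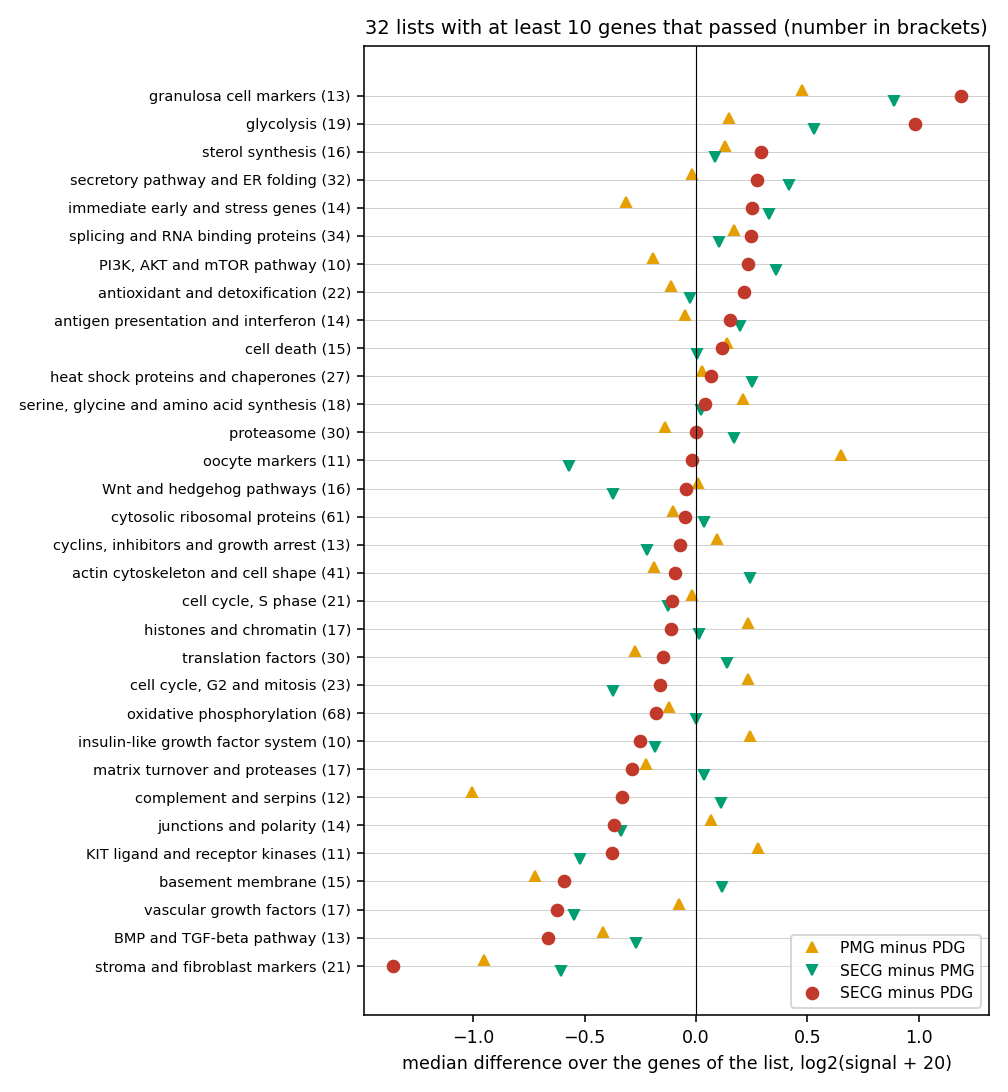
Median difference on the log2(signal + 20) scale over the passing genes of each of 32 lists, for PMG minus PDG (triangle), SECG minus PMG (inverted triangle) and SECG minus PDG (circle), with the number of genes in brackets. Granulosa markers (1.19) and glycolysis (0.98) end the order at the top and stroma (-1.36) at the bottom, and most other lists lie within 0.5 of zero.

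The largest rises from the primordial to the primary stage included 3 genes of milk proteins. CSN1S2, the alpha-s2 casein, had 6.10 on PDG, 302 on PMG and 44.5 on SECG, at least 6.18 times the PDG limit on PMG. CSN3, the kappa casein, had 6.06, 122 and 5.05, and LALBA, the alpha-lactalbumin of lactose synthesis, had 16.7, 183 and 39.1. They were above the limit on PMG alone among the GC arrays. CSN1S2 also had its highest oocyte signal at the primary stage, 70.3 on PMO. With ANKRD40CL, which had 12.3, 132 and 4.54, they were the 4 largest peaks at the primary stage.

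ENPP5, of the ectonucleotide pyrophosphatase family, had 11.3, 239 and 144, IRAK1BP1, which binds a kinase of interleukin signalling, had 6.08, 160.3 and 156, and the metallothionein MT3 had 111, 621 and 609. MT3 and IRAK1BP1 kept their PMG level on SECG. Of the 149 peaks 115 were above the limit on PMG alone, with a median highest signal of 87.2.

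The largest falls at this step, after C4BPA, were those of FABP5, HOXD10, MAP2K6, PLAC8B and LPL. FABP5, a fatty acid carrier, had 266, 1.97 and 51.2. HOXD10, a homeobox factor, had 525, 32.6 and 116, and in oocytes 570.0, 187 and 292. LPL, which releases fatty acids from lipoproteins, had 576, 63.6 and 70.0 and stayed above every limit, a 9.06-fold difference between PDG and PMG. MAP2K6, a kinase that activates p38, had 299, 15.1 and 49.5, and PLAC8B had 175, 2.13 and 5.72. FABP5 and HOXD10 were also among the 4 largest troughs, with RSPH9, a protein of the ciliary radial spoke (150.4, 5.81 and 111), and PNOC, the precursor of nociceptin (124, 2.74 and 38.7). Of the 176 troughs 137 were under the limit on PMG.

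From the primary to the secondary stage the largest rise was that of RRAD, a small GTPase, with 73.7, 31.4 and 845, at least 14.2 times the PMG limit. APOA1, the main protein of high-density lipoprotein, had 59.3, 37.3 and 466. SAMM50, of the mitochondrial outer membrane, had 53.7, 16.6 and 346, and SMARCD3, a subunit of chromatin remodelling complexes, had 47.8, 7.34 and 251. HSP90B1, a chaperone of the endoplasmic reticulum, had 78.2, 13.5 and 275, and NUP107, of the nuclear pore, had 128, 15.3 and 262. All 6 were under the limit on PMG. On the oocyte arrays SECO was at least 1 above PMO for each of them except SAMM50 (0.96), with RRAD at 335 against 76.8. The share of all genes that were higher on SECO than on PMO was not counted.

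The largest falls at this step were those of HOXB4 with 258, 419 and 19.8, and EXOC8, a subunit of the exocyst, with 192, 475 and 58.3. The deadenylase CNOT6L had 116, 111 and 1.18, the small GTPase RHEBL1 had 70.0, 144 and 7.12, and the mitochondrial serine carrier SFXN1 had 120.1, 136 and 6.89. EXOC8 was the one that stayed above the limit on every GC array, with an 8.15-fold difference.

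The oocyte arrays of the same stages were read beside the GC arrays over the same 5948 genes. Oocytes had 713 genes (12%) higher and 624 (10.5%) lower at the secondary than the primordial stage. Of the 182 steady rises in GC, 83 (45.6%) were also higher in oocytes and 4 lower. Of the 116 steady falls 34 (29.3%) were also lower and 9 higher. Across genes, which are not independent replicates, the difference between the last and first stage correlated between GC and oocytes with Pearson's r of 0.35 and Spearman's rho of 0.33 over 5948 genes, and at the single steps r was 0.19 and 0.20. The GC and oocyte arrays share no array, but those of a stage share follicles of that stage, the number of pooled animals and the preparation. Part of the order of stages in GC was thus also seen in oocytes, as with TRIB2 and C4BPA, whereas the stroma median was 0.04 there.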

How the data were processed

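The authors deposited MAS 5.0 signal intensities on a linear scale from GCOS, scaled to 100 on each array, with no further normalization between arrays. The GCOS version is not given in the sources used here. Ovine RNA was hybridized to bovine probe sets, so a low signal can reflect a poor match.

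Of 24016 probe sets besides 112 controls, 13292 have 1 symbol in the platform annotation, 86 several and 10638 none, for 9155 symbols. Only probe sets with 1 symbol were named. The deposited intensities received a constant of 20 and log2, and 10763 probe sets (6863 with 1 symbol) passed the filter. Genes were named as the 10 largest steady rises and falls, the 6 largest rises and falls per step and the 4 largest peaks and troughs, with a signal of at least 100 and one sign over the probe sets, as 15 genes listed by name, and as the leading members and cell type markers of 45 lists. Members and lists were chosen with earlier results of these data known. Any further gene was picked with its values in view. The computation was tested on simulated data. Python 3.11.15, pandas and matplotlib were used. Alternatives were other constants, a floor, 2 normalizations, 3 filters, the mean of probe sets and a minimum of 3-fold. No sequences were used here.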

Additional observations from a re-analysis of the deposited data

Results flagged for a closer look

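Genes named above, and the leading members of the other gene lists, were set against the oocyte arrays of the same stages, and those that differed by at least 1 in opposite directions in GC and oocytes are given here on the log2(signal + 20) scale, GC first. The difference between GC and oocytes was not tested, since each group holds 1 array per stage.

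Between the primordial and secondary stages, MMP14 differed by -2.98 and 2.92, PLAC8B by -2.92 and 2.68, CNOT6L by -2.68 and 3.13, AIF1 by -2.36 and 1.23, ISG15, an interferon-induced protein, by -2.14 and 2.13, FRZB, a secreted Wnt antagonist, by -1.56 and 1.08, and NR2F2 by -1.08 and 1.20. The reverse order was seen for SET, a histone chaperone, with 1.46 and -1.14, for the oocyte kinase MOS with 1.14 and -1.82, and for the netrin NTN4 with 1.02 and -1.69.

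From the primordial to the primary stage PLAC8B differed by -3.14 and 2.38. From the primary to the secondary stage HOXB4 differed by -3.46 and 2.92, CNOT6L by -2.63 and 1.60, HBB by -2.23 and 7.45, HBG by -1.83 and 4.48, NR2F2 by -1.52 and 1.54, COL3A1 by -1.18 and 2.06, PECAM1 by -1.17 and 1.11 and FN1 by -1.17 and 1.05. The HBB signal was 3838 on SECO and 2.00 on PMO, and that of HBG 575 and 6.64.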

How the results depend on the processing

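No paired analysis was possible because each stage has 1 array. No replicate could be left out for the same reason, and depth has no equivalent here beyond the limits of the arrays. The counts are given in the order higher and lower from primordial to primary, higher and lower from primary to secondary, higher and lower from primordial to secondary, steady rise and steady fall. With a constant of 50 they were 205, 282, 363, 245, 401, 296, 112 and 73. With the filter on all 3 arrays they were 133, 202, 246, 155, 315, 235, 99 and 59. With a minimum of 3-fold they were 134, 157, 204, 143, 238, 167, 60 and 35. A constant of 1 gave 759 genes higher from primordial to primary and 178 steady falls, a floor at 20 gave 733 higher from primordial to primary, and no filter gave 791 higher from primordial to primary and 818 lower from primary to secondary. The remaining 51 of 80 recomputed counts, among them all under quantile normalization, median centring, the brightest 30% and the mean of probe sets, were within 1.5 times of those reported. Median centring shifted the median PMG minus PDG over genes from 0.03 to -0.09. Of 163 named genes with a difference of at least 1 between PDG and SECG none changed sign, and 38 were under the minimum in at least 1 alternative, NR5A1 and CDH2 among them. No list median of at least 0.5 changed sign. The smooth muscle median was -0.23 without a filter in place of -1.13, and that of glycolysis 0.58 in place of 0.98. The causes were not tested.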
